A study of Mus musculus with 47 samples.

Results

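The hepatic response to antibiotics (ATB) was examined in female mice without the pregnane X receptor (PXR, encoded by Nr1i2). The comparison took the 12 arrays titled F_PxrKO_ATB (n = 6) and F_PxrKO_CTRL (n = 6) out of 47 liver arrays, 1 per mouse. All 12 mice were C57BL/6J Pxr-/- females, which lacked the receptor in the whole body, and were littermates of Pxr+/+ mice born to heterozygous dams. They were 6 months old when the treatment began and were killed at Zeitgeber time 6, in the light phase. The ATB mice drank water that held vancomycin at 0.5 g/L together with ampicillin and neomycin, each at 1 g/L, for 2 weeks, and the control mice drank water without antibiotics. Each group was kept in 2 cages, but no source used here ties a mouse to its cage, so cage mates enter the tests as separate animals. Pxr+/+ females (6 ATB, 6 control) and Pxr-/- males (6 ATB, 5 control) of the same series served to test differences in the response.

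PXR is a nuclear receptor of hepatocytes that binds many drugs and bile acids and switches on genes for oxidation, conjugation and transport of foreign compounds, in part together with its relative CAR (Nr1i3). Gut bacteria reshape bile acids and make metabolites that reach the liver through the portal vein, and broad oral antibiotics remove most of these bacteria. The liver of adult mice is also strongly sex-biased, because the pattern of growth hormone pulses differs between males and females.

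Levels are log2 array signals after removal of the wash batch (the arrays were washed in 3 batches) and cross-group normalization, and a difference is ATB minus control on that scale. A gene was called when 1 of its probes had a Benjamini-Hochberg adjusted p of 0.05 or less in limma and a fold change above 1.2. Arrays of both groups were similarly bright, with a 75th percentile of signal of 333 to 486 in control and 371 to 448 in ATB mice (exact permutation test over 924 splits, two-sided p = 0.511). Between 31814 and 33629 of 56605 gene probes were well above background on each array, and 32979 probes of 21877 genes were tested. The median difference over all genes was 0.05, with 66.5% of genes above 0, whereas quantile normalization centred it at 0.00 with 49.4% above 0. The probe of the targeted gene Nr1i2 still gave signal, at 11.37 to 11.89 in control and 10.98 to 11.81 in ATB Pxr-/- females, against 11.46 to 12.28 and 11.56 to 12.41 in the corresponding Pxr+/+ females. Whether it lies in the deleted part of the gene was not settled, so it does not check the genotype (ATB difference -0.19, SE 0.18, limma adjusted p = 0.71). Hepatocyte markers were well above background in every mouse, and the defining markers Cd79a (B cells), Ncr1 (NK cells) and Pnlip (pancreas) in none. In bulk liver, fewer cells of a type and less RNA per cell cannot be told apart.

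ATB called few genes in Pxr-/- females. After ATB, 8 of 21877 genes (0.0366%) were higher and 1 (0.00457%) was lower. The genes higher were Clec2h, Pde6c, Fzd8, C730027H18Rik, Zbtb11os1, LOC102642272, Xpo7 and Inca1. The only lower transcript was a non-coding RNA on chromosome 19 whose probe has no gene name. At an unadjusted p under 0.05, limma gave 3452 genes. Every ATB mouse lay above every control mouse in 137 genes (0.626%) and below every control mouse in 28 (0.128%). These counts take the brightest probe of each gene. By the called probe, the groups were apart in 8 of the 9 called genes. The brightest Xpo7 probe overlapped between the groups, so Xpo7 is not in these counts. The number called depended on single mice. Without control mouse 3, which had the brightest array of the 12 and the highest level of the 12 mice in 25.9% of all genes, 202 genes were called higher and 7 lower. Without ATB mouse 2, limma called 0 genes, with 3444 probes at an unadjusted p under 0.05, against 3924 probes in the full fit.

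**Figure D1:**
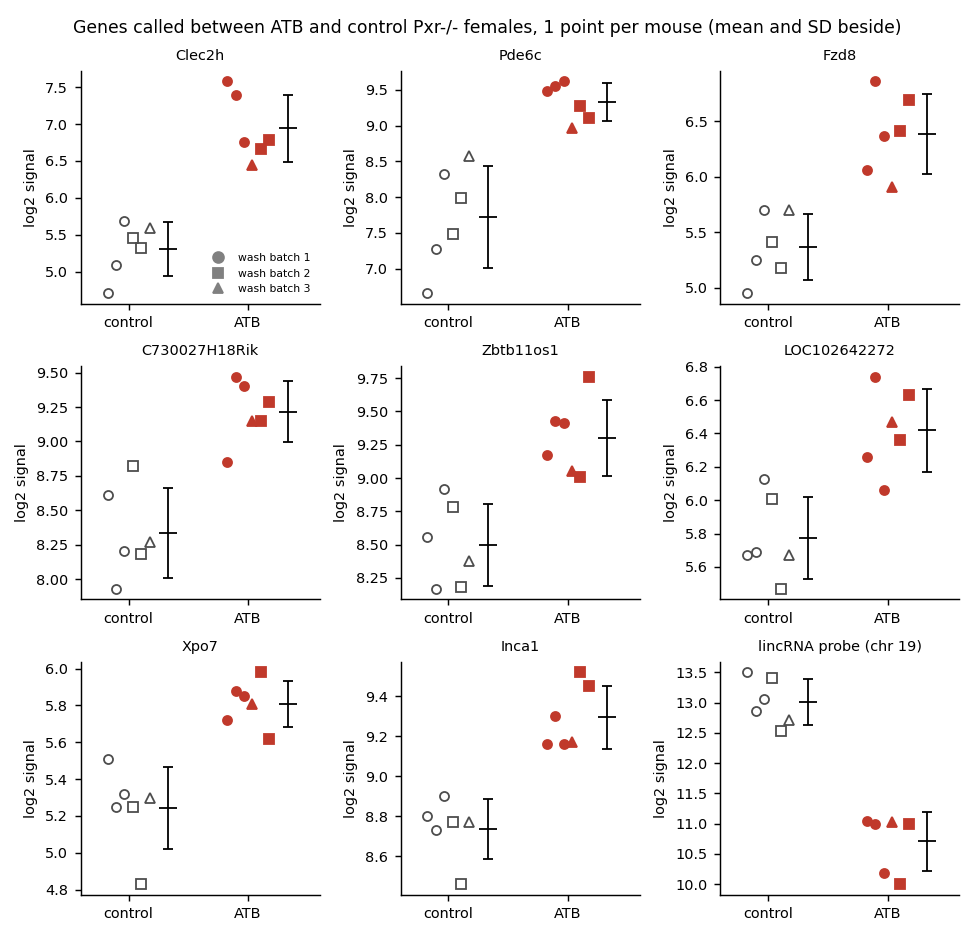
Log2 signal (y axis) of the 9 called genes in each control (open) and ATB (filled) Pxr-/- female, with the group mean and SD beside the points and marker shapes for the wash batches. The groups overlap in LOC102642272 and are apart in the other 8 genes, and the chromosome 19 transcript is the one that is lower after ATB.

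Of the 9 called transcripts, 3 are non-coding RNAs, and their probes are shown because the array sequence is what identifies each of them. Each probe is given 5′ to 3′ as printed on the array, with mm9 coordinates on the minus strand: the chromosome 19 RNA at chr19:5834543-5834602, Zbtb11os1 at chr16:55973465-55973524 and C730027H18Rik at chr10:70631612-70631671. No part of the sequences is in capitals.
chromosome 19 RNA: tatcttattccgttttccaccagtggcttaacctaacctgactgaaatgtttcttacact
Zbtb11os1: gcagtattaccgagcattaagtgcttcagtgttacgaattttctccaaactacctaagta
C730027H18Rik: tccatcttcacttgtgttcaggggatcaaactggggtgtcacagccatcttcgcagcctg

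The chromosome 19 RNA had the largest change of all genes tested, each taken by the probe shown. Its level was 12.53 at the lowest, 12.96 at the median and 13.50 at the highest in control mice, against 10.00, 10.99 and 11.05 in ATB mice. The lowest control mouse thus stood above the highest ATB mouse. The difference was -2.30 (SE 0.40, limma adjusted p = 0.013), or 4.94-fold, and it was -2.40, -2.47 and -1.70 within wash batches 1, 2 and 3. The array annotation gives the probe no gene name. It lies on the same strand as Neat1, the RNA scaffold of nuclear paraspeckles, 8052 bases from the nearest Neat1 probe and 9894 bases from the far end of the farthest. RefSeq gives Neat1 2 transcripts and a span of 20773 bases (GRCm38.p6), but with no mm9 annotation at hand, whether the probe lies inside Neat1 was not settled.

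Probes labelled Neat1 did not move alike. The nearest, labelled NEAT1, was 0.76 higher after ATB (SE 0.17, adjusted p = 0.0505). The other 2 were 0.20 and 0.32 lower (differences of -0.20, SE 0.12, and -0.32, SE 0.12, adjusted p = 0.51 and 0.24). None of these labelled probes passed the threshold, and the difference between probes was not tested. Whether the called chromosome 19 probe is a further Neat1 probe is the question left unsettled above.

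Clec2h, a C-type lectin-like surface protein, had the largest increase among the called genes. Its level ran from 4.71 to 5.68 in control mice (median 5.39) and from 6.44 to 7.58 in ATB mice (median 6.78). The groups did not overlap. The increase was 1.63 (SE 0.28, adjusted p = 0.013), or 3.10-fold, and was 2.09, 1.34 and 0.85 within the 3 wash batches.

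Pde6c, a subunit of the phosphodiesterase of cone photoreceptors, rose by 1.61 (SE 0.31, adjusted p = 0.030). Control mice ranged from 6.66 to 8.58 (median 7.73) and ATB mice from 8.96 to 9.62 (median 9.37), without overlap. A dimmer second probe differed by 0.58 (SE 0.13, adjusted p = 0.0505) and was well above background in 4 of 6 control and 6 of 6 ATB mice. Within wash batch 3, with 1 mouse per group, the difference of the called probe was 0.39, against 2.13 and 1.45 in batches 1 and 2.

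Fzd8, a receptor for Wnt ligands, rose by 1.02 (SE 0.20, adjusted p = 0.030). Control mice ranged from 4.95 to 5.70 (median 5.33; 5 of 6 well above background) and ATB mice from 5.91 to 6.86 (median 6.39). A brighter probe of the same gene differed by 0.83 (SE 0.17, adjusted p = 0.0505). Both probes separated the groups completely. Within wash batch 3, with 1 mouse per group, the called Fzd8 probe differed by 0.22, against 1.13 and 1.25 in batches 1 and 2.

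The remaining called genes changed by less than 1 on the log2 scale. C730027H18Rik, a non-coding RNA, rose by 0.88 (SE 0.17, adjusted p = 0.030), from 7.93 to 8.82 in control mice (median 8.23) to 8.85 to 9.47 in ATB mice (median 9.22). Its second probe differed by 0.47 (SE 0.11, adjusted p = 0.0505). Zbtb11os1, transcribed opposite the zinc finger gene Zbtb11, rose by 0.80 (SE 0.16, adjusted p = 0.035), from 8.17 to 8.92 (median 8.47) to 9.01 to 9.76 (median 9.29). In both RNAs every ATB mouse exceeded every control mouse. Inca1, an inhibitor of cyclin-dependent kinases, rose by 0.56 (SE 0.11, adjusted p = 0.036). Control mice ranged from 8.46 to 8.90 (median 8.77) and ATB mice from 9.16 to 9.52 (median 9.24), again without overlap, and its second probe differed by 0.53 (SE 0.13, adjusted p = 0.069).

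LOC102642272, an uncharacterized locus, rose by 0.64 (SE 0.12, adjusted p = 0.030) and was the called gene whose groups overlapped, with 5.47 to 6.13 in control (median 5.68) and 6.06 to 6.74 in ATB mice (median 6.41). Xpo7, an exportin that carries proteins through nuclear pores, was called through 1 dim probe (difference 0.56, SE 0.10, adjusted p = 0.020). That probe ranged from 4.83 to 5.51 in control (median 5.28) and from 5.62 to 5.98 in ATB mice (median 5.83). It reads the strand opposite to the other 5 Xpo7 probes, whose differences lay between -0.15 and 0.17 without a call. Whether the called signal is Xpo7 mRNA was not tested.

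How often a call held when each of the 12 mice was left out in turn differed between these genes. Clec2h stayed called in 11 of 12 such fits, the chromosome 19 RNA in 10 and Xpo7 in 9. The other 6 genes stayed called in 4 or 5 of 12. Over 10 ways of processing the arrays, Clec2h and the chromosome 19 RNA were called in 10 of 10, C730027H18Rik and Xpo7 in 9, and Inca1 in 5.

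**Figure D2:**
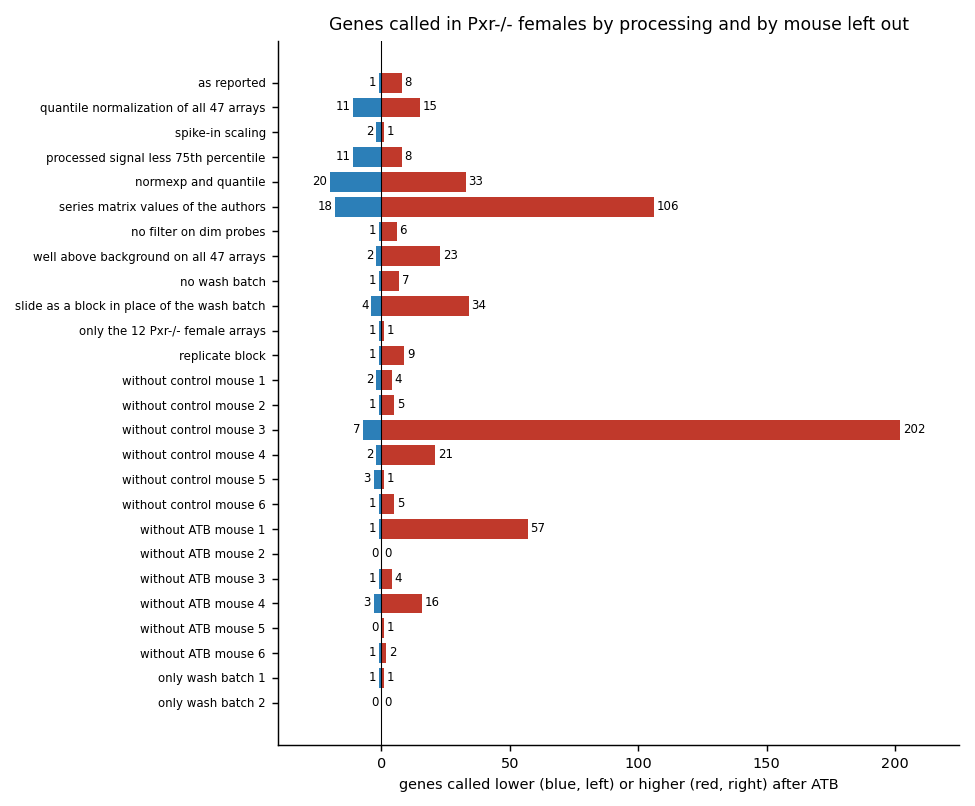
Number of genes called lower (left, blue) and higher (right, red) after ATB in Pxr-/- females, with 1 bar pair for each way of processing, each mouse left out and each wash batch alone. Most bars stay under 60 genes, whereas the authors' processed values gave 106 higher and leaving out control mouse 3 gave 202.

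Just inside the threshold lay Fzd8, Zbtb11os1 and Inca1. The next 37 genes, 32 higher and 5 lower, shared an adjusted p of 0.0505, and 210 genes had an adjusted p under 0.1. By the probe shown for each gene, the first 3 outside were Gm16548 (difference 0.61), ENSMUST00000103685 (1.34) and 5730424H11Rik (0.60), each with the ATB mice above every control mouse.

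None of the called genes belonged to the 36 lists of liver pathways and cell types. Of 923 list genes tested, 0 passed limma's adjusted threshold. At an unadjusted p under 0.05 in limma, 85 were higher and 33 lower, against 2185 and 376 of all 21877 genes by the probe shown. Between 0 and 15 list genes were called under the other ways of processing. The 15 were in the authors' values, where 106 of all genes were called higher and 18 lower. Without control mouse 3, 19 list genes were called, among 202 genes higher and 7 lower. ATB mice lay above every control mouse in 8 list genes (0.867%) and below in 2 (0.217%), against 0.626% and 0.128% of all genes. These were Abcg5, Abcg8, Ces3b, Sult1e1, Lifr, Gpx6, Tert and Atp6v0d2 above, and Dnaja1 and S100a8 below.

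**Figure D3:**
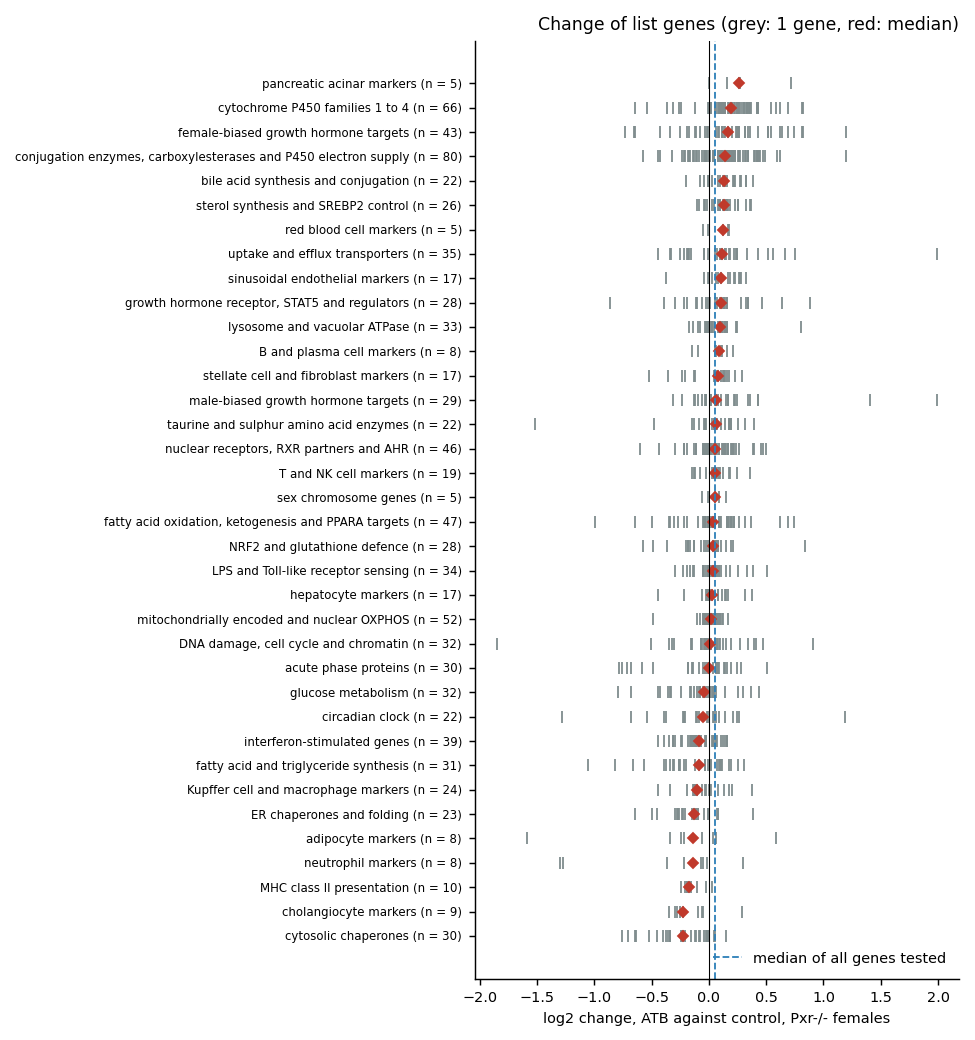
Log2 difference between ATB and control Pxr-/- females (x axis) of each gene (grey ticks) of 36 lists (rows, with the number of genes tested), with list medians in red and the median of all genes as a dashed line. Medians run from -0.23 in cytosolic chaperones to 0.26 in the 5 pancreatic acinar markers, and single genes such as Slco1a1 and Cdkn1a lie far from their list's median.

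Genes of drug oxidation and conjugation, the classical PXR program, were not called with the processing used here. In the authors' values, Cyp2c50, Cyp2c54, Cyp4f14 and Sult2a8 were among the genes called. Cytochrome P450 genes of families 1 to 4 had a median difference of 0.19, with 57 of 66 above 0 (86.4%, against 66.5% of all genes), and 0.13 with 53 above 0 under quantile normalization. Among them Cyp2c54, a drug- and fatty acid-oxidizing enzyme, had control levels of 15.10 to 15.93 and ATB levels of 15.65 to 16.27 (difference 0.59, SE 0.13, adjusted p = 0.0505). Cyp2c54 was called in 4 of 10 ways of processing. The PXR target Cyp3a11 differed by 0.10 (SE 0.17, adjusted p = 0.88), Cyp2c55 by 0.19 (SE 0.25, adjusted p = 0.83) and the CAR target Cyp2b10 by -0.12 (SE 0.33, adjusted p = 0.93). In these 3 genes the groups overlapped. Conjugation enzymes and carboxylesterases had a median of 0.14 (59 of 80 above 0), led by Sult1e1, the estrogen sulfotransferase, at 1.19 (SE 0.44, adjusted p = 0.25) and Sult2a8, which sulfates bile acids, at 0.59 (SE 0.13, adjusted p = 0.0505).

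Nuclear receptors had a median of 0.06, with 28 of 46 genes above 0. Nr1i3, which encodes CAR, ran from 10.38 to 11.56 in control mice (median 11.23) and from 11.42 to 11.87 in ATB mice (median 11.57), a difference of 0.50 (SE 0.14, adjusted p = 0.10). A dimmer Nr1i3 probe differed by 0.72 (SE 0.15, adjusted p = 0.0505). Nr1i3 was called in 3 of 10 ways of processing. Nr0b2, the bile acid-induced repressor SHP, differed by -0.60 (SE 0.22, adjusted p = 0.26).

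Transporters had a median of 0.12, with 22 of 35 above 0. Slco1a1, a male-biased uptake carrier of organic anions, had the largest difference of the lists, 1.99 (SE 0.49, adjusted p = 0.073). Control mice spread from 4.74 to 8.71 (median 6.30) and ATB mice lay close together from 8.34 to 8.67 (median 8.46). Control mouse 2 was the highest control, and without it Slco1a1 was called. Abcg5 and Abcg8, which pair to form the sterol export pump, differed by 0.67 (SE 0.17, adjusted p = 0.076) and 0.56 (SE 0.16, adjusted p = 0.13), and in both the groups were apart. Abca8a, an ABC transporter of lipids, differed by 0.75 (SE 0.16, adjusted p = 0.0505).

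**Figure D4:**
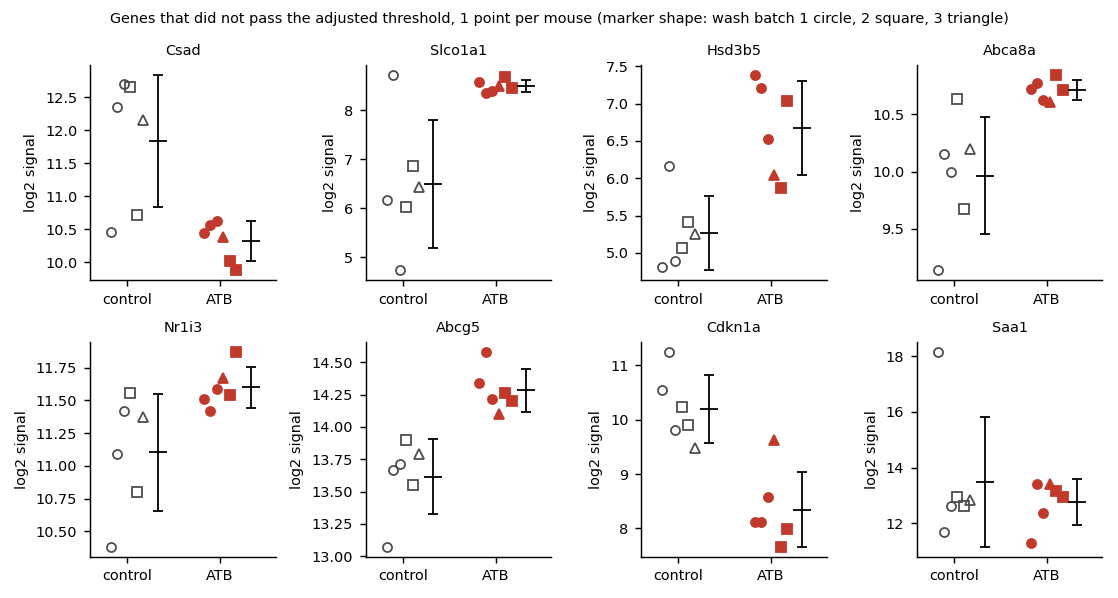
Log2 signal (y axis) of 8 genes that did not pass the adjusted threshold, in each control (open) and ATB (filled) Pxr-/- female, with group mean and SD beside the points. Control mice spread more widely than ATB mice in Csad, Slco1a1 and Nr1i3, and 1 control mouse at 18.15 stands apart in Saa1.

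Bile acid and taurine enzymes were likewise not called. Csad, the taurine-forming cysteine sulfinic acid decarboxylase, ran from 10.46 to 12.69 in control mice (median 12.26) and from 9.88 to 10.63 in ATB mice (median 10.41). Of the 6 control mice, 4 lay above 12 and the other 2 close to the ATB mice. The difference was -1.52 (SE 0.34, adjusted p = 0.0505). Without control mouse 1 it was -1.80 and was called (adjusted p = 0.032), and Csad was called in 5 of 10 ways of processing. A dim second probe of Csad differed by -0.12 (SE 0.15). Bile acid synthesis genes had a median of 0.13, with 16 of 22 above 0, and Cyp7a1, the rate-limiting enzyme, differed by 0.33 (SE 0.52, adjusted p = 0.87).

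No lipid gene of the lists was called with the processing used here. Fatty acid and triglyceride synthesis had a median of -0.09 (12 of 31 above 0), with Fasn, the fatty acid synthase, at -0.26 (SE 0.30), the desaturase Scd1 at -0.09 (SE 0.23), and the elongases Elovl2 at 0.25 (SE 0.14), Elovl3 at -0.12 (SE 0.35) and Elovl5 at 0.02 (SE 0.18). Their adjusted p-values in limma were 0.47 or higher. Plin4, a lipid droplet coat protein, differed by -1.59 (SE 0.40, adjusted p = 0.077) and Plin5 by -0.99 (SE 0.28, adjusted p = 0.13). Plin5 was called in the authors' values and Plin4 without control mouse 3. Sterol synthesis genes had a median of 0.13 (21 of 26 above 0), and fatty acid oxidation and PPARA targets had 0.04 (29 of 47).

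Growth hormone-dependent genes showed no called change with the processing used here. Male-biased targets had a median of 0.07 (20 of 29 above 0) and female-biased targets one of 0.16 (29 of 43), or 0.03 and 0.11 under quantile normalization. Hsd3b5, a male-biased steroid dehydrogenase, ran from 4.81 to 6.17 in control mice (median 5.16, 4 of 6 well above background) and from 5.87 to 7.38 in ATB mice (median 6.77), a difference of 1.41 (SE 0.32, adjusted p = 0.0505). It was called in the authors' values. Of the 9 genes called, 5 also differed between control Pxr+/+ males and females, against 7032 of all genes (32.1%). Clec2h, C730027H18Rik and the chromosome 19 RNA were among the 476 genes (2.18%) higher in males, and Pde6c and Fzd8 among the 6556 lower in males. Quantile normalization changed that split to 1533 genes higher and 1830 lower. Under that setting Pde6c and Fzd8 were not called by sex.

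Chaperones had the lowest list median. Of 30 cytosolic chaperones, 3 were above 0 and the median was -0.23, or -0.29 under quantile normalization. At an unadjusted p under 0.05 in limma, 7 were lower, against 376 of all 21877 genes by the probe shown. The median ATB difference of these chaperones was -0.32 in Pxr+/+ females and -0.02 in Pxr-/- males. Dnaja1, a co-chaperone of HSP70, ran from 14.60 to 15.13 in control and from 13.85 to 14.59 in ATB mice (difference -0.46, SE 0.16, adjusted p = 0.24). The inducible Hspa1b differed by -0.76 (SE 0.41), the small heat shock protein Hspb1 by -0.64 (SE 0.25) and Hsp90aa1 by -0.52 (SE 0.21). Their groups overlapped. Chaperones of the endoplasmic reticulum had a median of -0.13 (4 of 23 above 0), led by Herpud1 at -0.64 (SE 0.35).

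Stress and cell cycle genes had a median of 0.01. Cdkn1a, the cell cycle inhibitor p21, ran from 9.48 to 11.24 in control mice (median 10.06) and from 7.66 to 9.62 in ATB mice (median 8.12). Of the 6 ATB mice, 5 lay below every control. The difference was -1.85 (SE 0.43, adjusted p = 0.064). Within wash batches 1 and 2 it was -2.26 and -2.24, and within batch 3, with 1 mouse per group, it was 0.13. Tert, the telomerase subunit, differed by 0.91 (SE 0.21, adjusted p = 0.065) without overlap, and Gpx6, a glutathione peroxidase, by 0.84 (SE 0.19, adjusted p = 0.052), also without overlap. In the authors' values Cdkn1a, Tert and Gpx6 were called, and Cdkn1a and Tert also with the normexp background correction. Clock genes had a median of -0.05 (9 of 22 above 0), glucose metabolism one of -0.05 (13 of 32) and oxidative phosphorylation one of 0.02 (32 of 52).

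The median of the acute phase genes turned on 1 control animal. Control mouse 1 had the highest level of the 12 mice in 23 of 30 acute phase genes, against 6.69% of all genes. Its Saa1 level, serum amyloid A, was 18.15, whereas the other 5 control mice lay between 11.69 and 12.96 and the ATB mice between 11.29 and 13.43. The acute phase median was 0.00 with that mouse and 0.17 without it. Without control mouse 1, 4 genes were called higher and 2 lower in the whole comparison.

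Neutrophil markers had a median of -0.14 (1 of 8 above 0), and S100a8 and S100a9, a calcium-binding pair of neutrophils, differed by -1.30 (SE 0.36, adjusted p = 0.11) and -1.28 (SE 0.41, adjusted p = 0.18). S100a8 ran from 6.74 to 8.95 in control and from 5.75 to 6.70 in ATB mice, without overlap. Ly6g, the neutrophil marker above 0, differed by 0.30 (SE 0.09, adjusted p = 0.17), with overlap. MHC class II genes had a median of -0.18 (1 of 10 above 0), interferon-stimulated genes one of -0.09 (12 of 39) and Kupffer cell and macrophage markers one of -0.10 (8 of 24). Sensors of bacterial products, the Toll-like receptor list, had a median of 0.03 (20 of 34). Markers of T and NK cells (0.05), B and plasma cells (0.08), sinusoidal endothelium (0.11), stellate cells (0.08), cholangiocytes (-0.23, 1 of 9 above 0) and hepatocytes (0.02) gave no call. Without control mouse 1 the medians were 0.02 for interferon-stimulated genes, 0.00 for T and NK cells, 0.00 for sinusoidal endothelium and -0.05 for stellate cells, and -0.17 for neutrophils, -0.24 for MHC class II genes and -0.06 for macrophages. The part of cell composition in these values was not tested.

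Whether the response of Pxr-/- females differed from that of other mice was tested as a difference of effects. Relative to Pxr+/+ females, limma called 0 genes (0%), with 3077 at an unadjusted p under 0.05 and a smallest adjusted p of 0.441. All genes were shifted by a median of 0.13 in that difference. Relative to Pxr-/- males, 1 gene (0.00457%) was called, with 1603 at an unadjusted p under 0.05. This was Moxd1, a monooxygenase-like protein (limma adjusted p = 0.0035), whose probe was tested because it was well above background in ATB males. Moxd1 was well above background in none of the 12 Pxr-/- females, at 4.01 to 4.88, and ran from 4.55 to 6.97 in control (3 of 5 well above background) and from 7.77 to 12.24 in ATB Pxr-/- males. The call thus sets a change in males against a probe with no measured level in females, and no size is given for it.

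**Figure D5:**
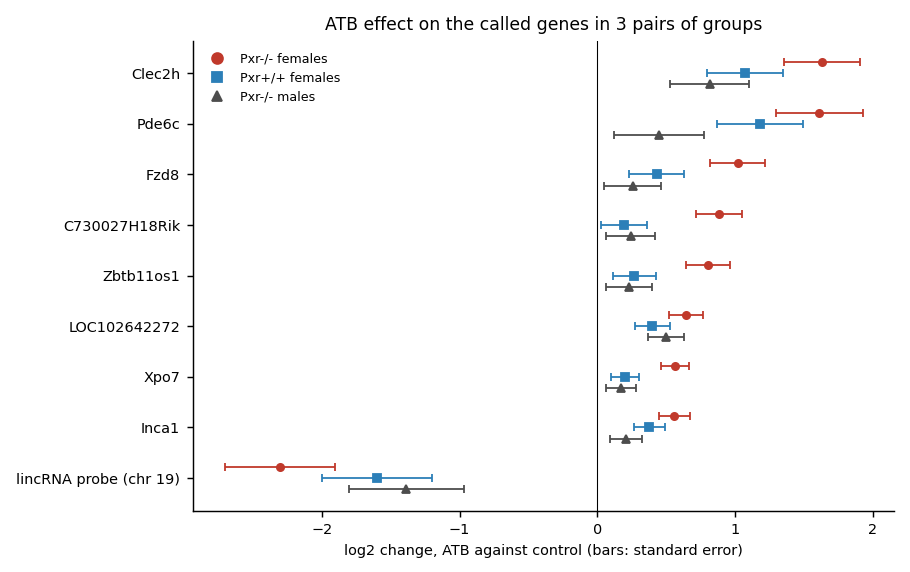
Log2 difference between ATB and control mice (x axis, bars for the standard error) of the 9 genes called in Pxr-/- females, in these mice and in Pxr+/+ females and Pxr-/- males. Estimates lie on the same side of 0 in the 3 pairs of groups and are farthest from 0 in Pxr-/- females, in which the genes were chosen.

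The 9 called genes had the same direction in Pxr+/+ females and in Pxr-/- males, and each difference there was smaller than in the mice in which the gene was called. For comparison, 48.4% and 58.1% of all genes had the same sign as in Pxr-/- females. Clec2h differed by 1.07 (SE 0.28) in Pxr+/+ females and by 0.81 (SE 0.29) in Pxr-/- males, where control levels were higher (8.01 to 9.01). The chromosome 19 RNA differed by -1.60 (SE 0.40) and -1.39 (SE 0.42). Neither gene passed the adjusted threshold in either of those comparisons, and the differences between effects did not pass it for any of the 9. At an unadjusted p under 0.05 in limma were 6 of the 9 genes in Pxr+/+ females and 3 in Pxr-/- males. Of all 21877 genes, 3042 and 2022 had a probe under that cutoff in the same comparisons. Csad differed by -2.48 in Pxr+/+ females and -1.44 in Pxr-/- males, and Cdkn1a by 0.10 and -0.44.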

How the data were processed

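Samples were grouped by their titles. Per the labels and methods, the authors hybridized labelled liver RNA to 1-colour Agilent arrays, read with Feature Extraction 10.10.1.1. The deposited scanner files hold linear spot intensities (pixel medians), neither subtracted nor scaled. The deposited table holds log2 values that the authors filtered, corrected for wash batch and normalized with CrossNorm; it was used as an alternative.

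Here log2 median intensity was taken, 422 non-uniform spot values and control spots were left out, and a probe was kept when at least 5 arrays of some group read it well above background. The wash batch effect was removed, and CrossNorm was run with 300 random stacks; the authors' filter rule and stacking are not given in the sources used here. limma 3.58.1 (R 4.3.3, data.table version 1.17.8) was fitted to 8 groups and wash batch over all 47 arrays. The fit was tested on simulated data, and matplotlib drew the figures. A gene is shown by its brightest probe, and a called gene by its called probe. Symbols of 1535 probes were updated by RefSeq accession. Genes named are all those called, those the study measured, up to 3 per list, defining markers and the genes next to the threshold, plus genes chosen after their values were seen (Cyp2c54, Abcg8, Dnaja1, Hsp90aa1). Members and lists were chosen with earlier results of these data known.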

Additional observations from a re-analysis of the deposited data

Results flagged for a closer look

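In 248 groups of 6 mice, 1 for each named gene and treatment, 15 held a mouse whose gap to its nearest neighbour took up an unusually large part of the group's range. Chance alone gives about 1 in 20 such groups. In control mouse 1, log2 levels were 18.15 for Saa1, 18.29 for Saa2, 11.63 for Mup11, 9.90 for Amy2a5 and 5.44 for Ms4a1. Other control mice stood apart with 8.98 for Nlrp6 (mouse 5), 7.99 for Gpx2 and 3.83 for Uty (mouse 2), and 9.51 for Hspa1b and 11.27 for Bcl6 (mouse 6). Among ATB mice these were 8.39 for Saa3 and 14.58 for Elovl5 (mouse 1), 11.54 for Kdr (mouse 5), and 12.50 for Ctss and 6.62 for Ms4a1 (mouse 6). The ATB effect on Moxd1 differed between Pxr-/- females and Pxr-/- males by a fitted -4.29 on the log2 scale, but the probe was well above background in 0 of the 12 females and was tested because of its level in ATB males, so this value measures the male change against background signal.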

How the results depend on the processing

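Against 8 genes higher and 1 lower after ATB, counts were 15 and 11 with quantile normalization, 1 and 2 with spike-in scaling, 8 and 11 with the processed signal less the 75th percentile, 33 and 20 with normexp, 106 and 18 in the authors' values, 23 and 2 with probes well above background on all 47 arrays, 34 and 4 with the slide as a block, 1 and 1 with only the 12 Pxr-/- female arrays, 1 and 1 in wash batch 1, and 0 and 0 in wash batch 2. Genes called higher were thus 88.9% of the called genes as reported, and 57.7%, 33.3% and 42.1% with quantile, spike-in and 75th percentile scaling. Leaving out 1 mouse gave 0 to 202 genes higher and 0 to 7 lower; besides control mouse 3 and ATB mouse 2, the higher counts were 21 without control mouse 4, 57 and 16 without ATB mice 1 and 4, and 1 without control mouse 5 or ATB mouse 5. The difference from Pxr+/+ females called 1 gene in the authors' values (Dcp2) and in wash batch 1 (4930458D05Rik). The difference from Pxr-/- males called 0 genes with the processed signal, with probes well above background on all arrays, with only the groups compared and within either wash batch, and 1 to 2 when 1 female was left out (Cyp39a1 beside Moxd1 without ATB mouse 6). The share of called genes that were sex-biased was 55.6%, against 32.1% of all genes. With quantile normalization it was 34.6%, against 15.4% of all genes. Same-numbered mice did not deviate together (correlations of -0.13 to -0.05). An absent correlation does not settle whether the numbers pair mice. With the replicate number as a block, 9 genes were called higher and 1 lower. No called gene changed sign. The cause of these differences was not tested. With 6 mice a group, genes near the adjusted threshold pass or miss it with 1 array.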
